A study of Mus musculus with 3 samples.

Results

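The second passage step of a Pold3 knockout experiment was described by comparing the RNA of embryonic stem cells at passage P2 with that at passage P1, across all 13585 genes that reached an FPKM of 1 in either library or in both. FPKM counts fragments per kilobase of gene, scaled to the size of the library, and the deposited table held 50043 gene IDs. Both libraries, out of 3 in the series, came from mouse cells of the KH2 line carrying an inducible knockout of Pold3, which encodes a non-catalytic subunit of the lagging-strand DNA polymerase delta. The third library, from passage P0 of the same line, is given as a level beside them. KH2 is an embryonic stem cell line built so that a transgene can be placed at a fixed site and switched on with doxycycline. The labels leave out at which time, counted from P0, the knockout was switched on, what the cells of P1 and P2 received, or whether the passages came from 1 culture. The question the design poses is how the transcriptome of these cells differs from passage to passage.

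Each passage is a single library, so differences are values without a check by replicates or any p-value. A gene is said to have risen or fallen when log2(FPKM + 1) differed by at least 1 between P1 and P2. In low genes this scale asks for more than a doubling of FPKM. Ratios are given with exact 95% intervals computed on the reads recovered from the values, which compare the libraries and cover counting error only. In bulk RNA, fewer cells of a type and less RNA per cell cannot be told apart.

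Embryonic stem cells in culture hold a mixture of states, among them a rare state that transcribes genes of the early cleavage embryo. They respond to retinoic acid, a vitamin A derivative that binds nuclear receptors and turns on genes of differentiation and of meiotic entry. They are also known to lose or keep expression of the imprinted Dlk1-Dio3 locus from line to line, a locus whose maternal copy is transcribed into long noncoding RNAs that carry small nucleolar RNAs and microRNAs.

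Pold3 itself measured 49.2, 13 and 11.6 FPKM in the order of passages, from 286 reads at P1 and 317 at P2. The ratio of P2 to P1 was 0.893 (interval 0.759 to 1.05), so the second step began with Pold3 already low and moved it by less than counting error can resolve. The stem cell factor genes remained abundant: Pou5f1 stood at 746 FPKM at P1 and 670 at P2, Sox2 at 229 and 212, and Nanog at 165 and 240. Library totals were 18059914 reads at P1 and 22405670 at P2. Of 25 fibroblast markers 13 were compared, with 0 calls and a summed level of 343 FPKM at P1 and 355 at P2. Of the 13, 9 were above 0 and 4 below, from Fn1 at 143 and 110 FPKM to Fbln1 at 29.8 and 52.1. Fap, S100a4 and Postn had no read in any library. Of 16 blood cell markers 6 were compared, also with 0 calls, and their sum of 218 and 246 FPKM lay mostly in Laptm5, at 182 and 203. The leukocyte gene Ptprc had 10 reads at P2 and the macrophage gene Adgre1 had 1.

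From P1 to P2, 106 genes rose and 120 fell, which was 0.78% and 0.883% of those compared and 1.66% together. The median difference was 0.02, and 93.8% of genes lay within 1.5-fold. Both libraries held 98.8 to 98.9% of their reads in protein-coding genes. The make-up of the calls differed by class. Of 12262 protein-coding genes 53 rose and 15 fell, whereas of 97 snoRNA genes 4 rose and 41 fell. Once short RNA genes and the authors' unnamed models were set aside, rises numbered 79 (0.601%) and falls 37 (0.281%) of 13154 genes, so higher calls made up 68.1% in place of 46.9%. Many calls were thin: 78 of the 120 lower calls and 32 of the 106 higher calls rested on fewer than 20 reads in the pair of libraries. The counting interval lay wholly above 1 for 80 of the rises and wholly below 1 for 66 of the falls.

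**Figure D1:**
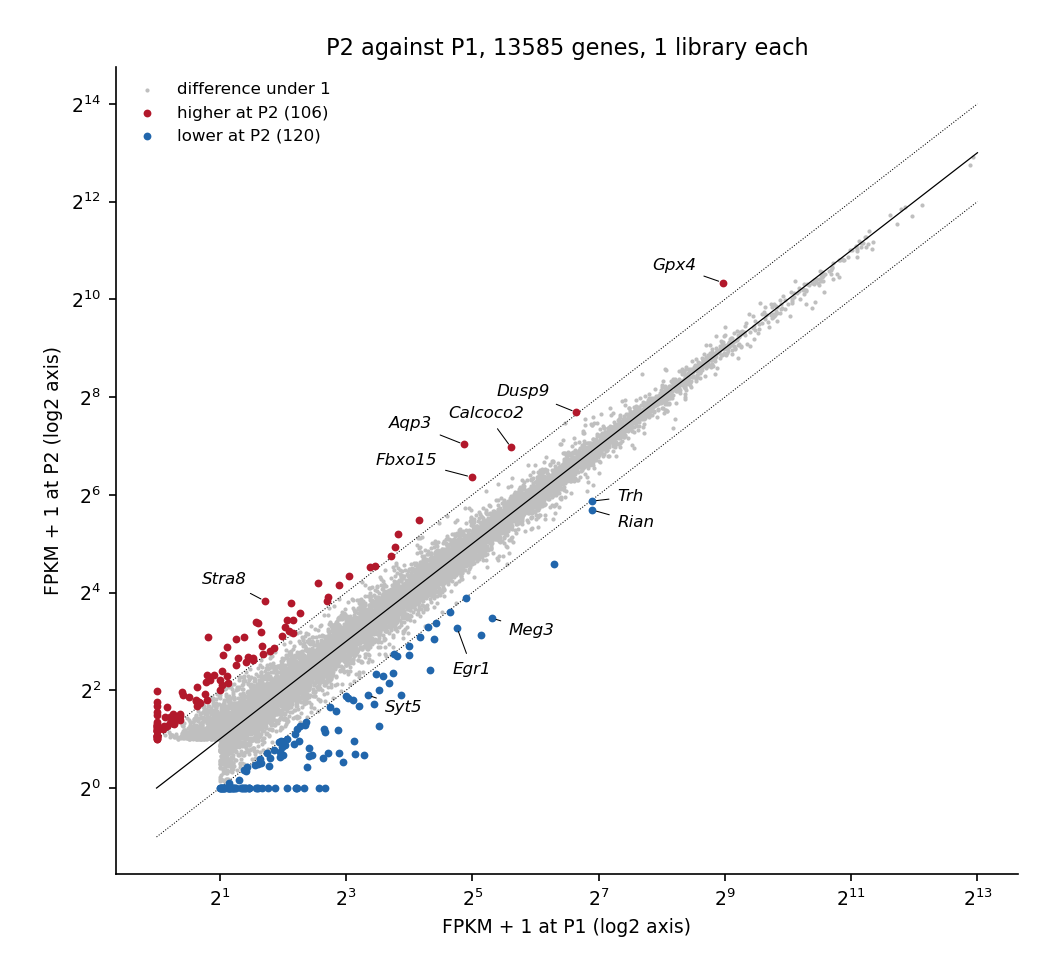
FPKM + 1 of 13585 genes at P1 (horizontal) and P2 (vertical), both on log2 axes, 1 point per gene. The dotted lines mark a difference of 1; the 106 genes above them (red) include Gpx4, the most abundant gene to rise, and the 120 below them (blue) include Rian and Meg3, with most blue points at low FPKM.

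Aqp3, which encodes a membrane channel for water and glycerol, had the largest rise in log2(FPKM + 1) of the genes named here outside families of near-identical copies, although the ratios of Stra8 and Cdx1, from lower levels, were larger. Aqp3 (ENSMUSG00000028435, chromosome 4) measured 22.7 FPKM at P0, 28.2 at P1 and 129.9 at P2, from 551 and 3152 reads at the later passages. Its level at P2 was 4.61-fold that at P1 (interval 4.21 to 5.06), and P0 and P1 lay close together well below it. Of the other aquaporin genes compared none was called: Aqp9, another glycerol channel gene, stood at 0.754 and 1.72 FPKM, Aqp11 at 1.28 and 1.43 and Aqp5 at 1.66 and 1.80. Aqp1, Aqp2, Aqp4, Aqp7, Aqp8 and Aqp12 were below 1 FPKM in both libraries. The family's rise was thus that of Aqp3, and the list's median over 6 genes was 0.15.

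Gpx4 was the most abundant gene to rise. It encodes the selenium-containing peroxidase that reduces lipid hydroperoxides within membranes and protects cells from ferroptosis. Gpx4 (chromosome 10) measured 573 FPKM at P0, 499 at P1 and 1298 at P2. The ratio of P2 to P1 was 2.60 (interval 2.53 to 2.68), and the earlier libraries lay close together. All 7 glutathione peroxidase genes compared were higher at P2, with a median difference of 0.34, although Gpx4 alone passed the threshold. Gpx1, the cytosolic enzyme, stood at 666 and 827 FPKM, the secreted Gpx3 at 66.5 and 89.8, and Gpx2, of the gut, at 47.5 and 60.6. The differences of Gpx3 and Gpx2 were 0.43 and 0.34.

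The rest of the selenoprotein machinery did not follow Gpx4 past the threshold. Of 21 other selenoprotein and selenium-handling genes compared, 0 rose and 0 fell, and the median difference was 0.10. The largest was Selenop, the plasma selenium carrier, at 0.38. The elongation factor Eefsec, which delivers selenocysteine, and the thioredoxin reductase Txnrd1 differed by 0.27 and 0.16. Among 30 genes of glutathione metabolism and lipid peroxide defence, again 0 were called. Gss, glutathione synthetase, differed by 0.54, and Nqo1, a quinone reductase, stood at 61.2 and 87.1 FPKM. Chac1, which degrades glutathione, was at 6.56 FPKM at P1 and 2.97 at P2, a difference of -0.93.

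The retinoid list, unlike the groups above, held more than 1 rise. Of 21 members compared, 3 rose, 0 fell and 17 were above 0, with a median of 0.33 against 0.02 over all genes. Stra8, whose product drives entry into meiosis and which was named for its induction by retinoic acid, measured 12.2 FPKM at P0, 2.28 at P1 and 13.2 at P2. Its ratio of P2 to P1 was 5.80 (interval 4.32 to 7.94). Cdx1, a caudal homeobox gene that responds to retinoic acid and to Wnt, measured 4.60, 1.17 and 6.38 FPKM and its ratio was 5.45 (interval 3.85 to 7.92). For both genes P1 was the low library, and P2 lay near P0.

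Genes that take up, carry and degrade retinoids did not pass the threshold. Crabp2, which hands retinoic acid to its receptor, stood at 3.69 and 8.03 FPKM (difference 0.94). Stra6, the receptor for retinol uptake, was at 0.524 and 1.69 FPKM (0.82), Dhrs3, which turns retinal back into retinol, at 0.694 and 1.89 (0.77), and Cyp26a1, which degrades retinoic acid, at 0.344 and 1.18 (0.70). Stra6, Dhrs3 and Cyp26a1, with Meis2, entered the comparison only through their level at P2, so that their direction follows from the filter and adds nothing to the list's count. With no filter on low values the list's median was 0.30. These low levels are where the scale understates most, and with a pseudocount of 0.1 in place of 1 there were 8 rises in the list. Over all 13585 genes the same change took rises from 106 to 370. Low members that passed the floor only at P2 are among the 8, so that count adds nothing either. The abundant receptor genes were level by comparison: Rarg stood at 296 and 326 FPKM, Rara at 32.7 and 30.2, Rxra at 15.1 and 18.8 and Rxrb at 59.1 and 69.0. Rarb, the receptor gene that retinoic acid itself induces, was below 1 FPKM, with 6, 1 and 11 reads in the order of passages. The synthesizing enzymes Aldh1a1 and Aldh1a3 differed by 0.02 and -0.29. The anterior Hox gene Hoxb2 had no read at P2.

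**Figure D2:**
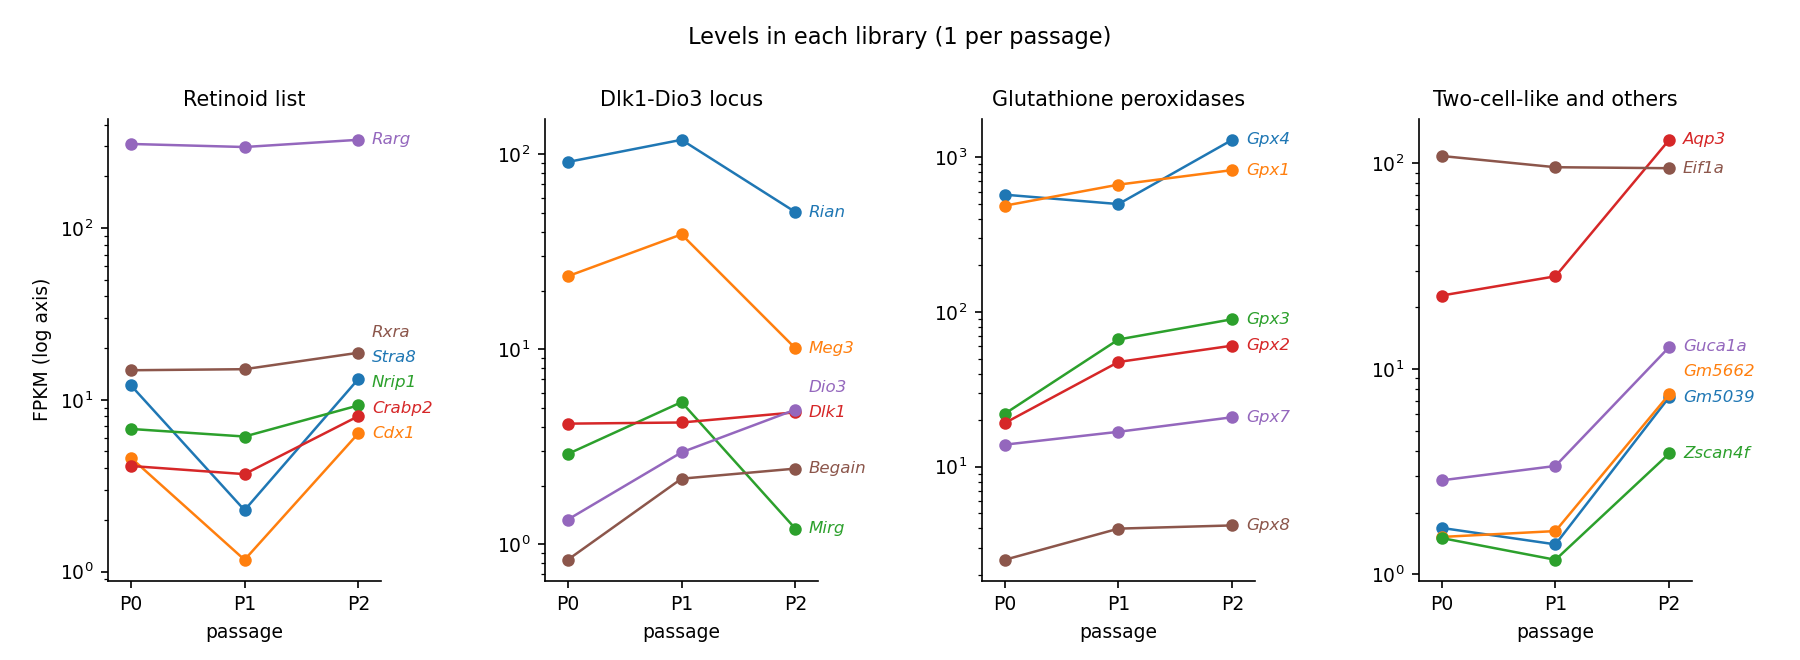
FPKM on log axes in the libraries of P0, P1 and P2, 1 point per library, for 6 genes each of the retinoid list, the Dlk1-Dio3 locus, the glutathione peroxidases and a mixed panel. Stra8 and Cdx1 dip at P1 and return at P2, Meg3, Rian and Mirg peak at P1 and drop at P2, and Gpx4 and Aqp3 have their steep rise after P1, while Rarg, Dlk1 and Eif1a run nearly flat from P1 to P2.

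Retinoic acid receptors bind pairs of short half-sites, classically direct repeats with a spacer of 5 bases. Promoter sequences, from 250 bases before to 50 after the gene start, were taken from RefSeq (GRCm38.p6) and searched on both strands for the letters AGGTCA and AGTTCA and for the 4 direct repeats of these with NNNNN between them. Of the 21 genes compared 15 had an entry. A direct repeat occurred in 13 of 32851 promoters (0.0396%) and a half-site in 9104 (27.7%), overlaps with other motifs not removed. The 15 retinoid genes had 30 promoters, of which 1, of Cyp26a1, held a direct repeat. A half-site occurred in 8 of the 30, from 7 genes with Stra8 among them, a share close to that of all promoters. The promoters of these 2 genes, one with the repeat and one with the largest rise of the list, are shown with the matches in capitals. A match is a string of letters and not a measured binding site. The Stra8 window lies at chr6:34920698-34920997 on the plus strand, with AGGTCA starting 194 and 38 bases before the gene start. The Cyp26a1 window lies at chr19:37697558-37697857 on the plus strand, with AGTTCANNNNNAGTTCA read on the opposite strand and starting 32 bases before the gene start.
Stra8: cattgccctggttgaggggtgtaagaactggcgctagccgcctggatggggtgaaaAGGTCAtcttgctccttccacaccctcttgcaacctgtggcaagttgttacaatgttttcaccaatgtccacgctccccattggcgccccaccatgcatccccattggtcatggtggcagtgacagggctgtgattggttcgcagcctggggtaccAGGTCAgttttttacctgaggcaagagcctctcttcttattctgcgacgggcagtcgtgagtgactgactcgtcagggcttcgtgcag
Cyp26a1: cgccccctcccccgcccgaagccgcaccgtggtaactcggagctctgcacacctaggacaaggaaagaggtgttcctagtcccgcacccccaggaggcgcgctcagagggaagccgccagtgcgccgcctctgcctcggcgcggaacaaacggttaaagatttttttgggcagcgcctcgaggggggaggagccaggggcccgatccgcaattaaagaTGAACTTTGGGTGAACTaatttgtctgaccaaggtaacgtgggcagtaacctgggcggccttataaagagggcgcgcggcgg

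Germline and meiosis genes, a list that also holds Stra8, leaned upward. Of 34 compared 1 rose, 0 fell and 29 were above 0, with a median of 0.35. The floor of 1 FPKM was reached only at P2 by 4 members, which fixed their direction. With no filter on low values the median was 0.34. Dazl, an RNA-binding factor of germ cells, stood at 2.0 FPKM at P1 and 4.05 at P2, Hormad1, of the meiotic chromosome axis, at 3.07 and 6.68, and Taf7l, a germ cell transcription factor subunit, at 5.54 and 10.6. Tex19.1, which restrains retrotransposons, stood at 84.2 and 130 FPKM, a difference of 0.62. At the other end Syce2, of the synaptonemal complex, was at 96.9 and 76.5 FPKM and Sycp3 at 3.75 and 3.15. No meiotic gene other than Stra8 reached the threshold in this list.

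Two-cell-like genes had the highest median of any list, 0.99, with 7 of the 15 compared rising and 0 falling. Of the 15, 9 reached the floor of 1 FPKM only at P2, which fixed their direction. These are genes of the cleavage embryo that a small share of stem cells transcribe in bursts. Zscan4f, of the zinc finger cluster that marks this state, measured 1.5 FPKM at P0, 1.18 at P1 and 3.87 at P2 (ratio 3.29, interval 2.11 to 5.32), and Zscan4d measured 1.25, 1.05 and 3.34. Reads on the Zscan4 genes summed to 197, 165 and 616 in the 3 libraries. Gm5039 and Gm5662, Eif1a-related genes on chromosome 12, reached 7.28 and 7.52 FPKM from 1.40 and 1.63. Gm2056, on the same chromosome, had the largest rise under the rule for named genes, from 6 reads to 73 (0.764 to 7.49 FPKM, interval of the ratio 4.30 to 27.6), and Gm8332 rose from 2.04 to 9.44 FPKM. Eif1a itself, the widely expressed relative, stood at 95.6 and 94.5 FPKM. Usp17lb and Usp17le, of a family of deubiquitinase genes, rose to 2.2 and 5.95 FPKM. All of these belong to families of near-identical copies among which reads could have been shared, so the rise of single members is uncertain. The median moved to 1.58 with a pseudocount of 0.1 and to 0.79 without a filter on low values.

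The Dlk1-Dio3 locus on chromosome 12 split by transcript type. Its 3 long noncoding RNA genes fell and its 3 protein-coding genes that could be compared did not. Meg3 (ENSMUSG00000021268) measured 23.7 FPKM at P0, 38.8 at P1 and 10.1 at P2, and was 3.84-fold lower at P2 than at P1 (interval 3.50 to 4.21). Rian, the host of a large snoRNA cluster, measured 91.3, 119 and 50.6 FPKM and was 2.35-fold lower (interval 2.21 to 2.49). Mirg, the host of a microRNA cluster, measured 2.90, 5.36 and 1.2 FPKM and was 4.45-fold lower, from 158 reads to 44. In all 3 the highest library was P1 and the lowest P2.

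Dlk1, a paternally expressed membrane protein gene of the Notch ligand type, stood at 4.21 FPKM at P1 and 4.75 at P2. Dio3, the deiodinase that inactivates thyroid hormone, was at 2.96 and 4.90 and Begain at 2.17 and 2.44. Rtl1 was below 1 FPKM throughout, with 22 reads at P1 and 17 at P2. Of 25 other imprinted genes 0 were called and the median was -0.07. Snhg14, an imprinted transcript held in another list, fell and is described with the snoRNA hosts. H19, a maternally expressed noncoding RNA, stood at 2.18 and 4.57 FPKM (difference 0.81) and its neighbour Igf2, a fetal growth factor, at 14.2 and 20.9 (0.52). Nnat and Grb10 were lower, at -0.70 and -0.49.

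Long noncoding RNAs as a class did not share the direction of Meg3. Of 220 lincRNA genes compared 8 rose and 3 fell, Meg3 and Mirg among them, 97 were below 0 and the median was 0.07. Of 99 genes annotated as processed transcripts, Rian among them, 0 rose and 5 fell, with a median of -0.10. A smaller list of RNAs kept in the nucleus or on chromatin, added after values had been seen and including Meg3, Rian and Mirg, had 13 members compared, of which 5 fell, 0 rose and all 13 were below 0, with a median of -0.91. The median was -0.62 over the 8 members that no other list holds. As the list was put together with these values in view, its direction is a description only. Malat1, of nuclear speckles, stood at 76.3 FPKM at P1 and 44.3 at P2, Neat1, of paraspeckles, at 2.21 and 1.04, and Firre, an X-linked RNA that shapes nuclear organization, at 45.7 and 23.0. Tug1 was nearly level at 28.7 and 26.9. P0 was close to P2 for Malat1 (49.7 FPKM) and close to P1 for Firre (45.5).

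A chosen list of genes whose introns or exons carry snoRNAs was lower at P2, mostly in its noncoding members. Of 24 compared from this list 4 fell, 0 rose and 22 were below 0, with a median of -0.46. The list does not stand for all such genes. Of 66 genes found around the snoRNA genes compared, described below, 0 fell and the median was -0.05. The median was -0.04 for the 61 protein-coding ones and -0.29 for the 5 noncoding ones. Snhg11 fell from 7.66 to 2.51 FPKM, Snhg17 from 29.0 to 13.9 and Snhg14, the long transcript of the imprinted Prader-Willi region, from 18.6 to 8.81, and Rian is the other. Snhg17 and Snhg14 were close to the threshold, and with the reads of P2 thinned to the depth of P1 both came just short of it, at -1.0 and -0.98. Gas5, a growth arrest transcript, stood at 77.9 and 48.3 FPKM, Zfas1 at 47.1 and 26.9 and Snhg12 at 31.8 and 18.9. Gas5 differed by -0.68, Zfas1 by -0.79 and Snhg12 by -0.72. Taf1d, a protein-coding host, stood at 64.5 and 39.7 FPKM, but most protein-coding hosts in the list were level: Eef2, the elongation factor, differed by -0.03, Rpl3 by -0.03 and Ncl, nucleolin, by -0.12.

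The snoRNA genes themselves had the most falls of any class. Small nucleolar RNAs guide the chemical modification of ribosomal and spliceosomal RNA: those with boxes C and D direct methylation of the ribose and those with H and ACA boxes direct conversion of uridine to pseudouridine. Of 97 compared 41 fell and 4 rose, with a median of -0.76. The floor of 1 FPKM was reached only at P1 by 39 and only at P2 by 13, which fixed the direction of these. Summed over the genes compared, reads went from 1018 at P1 to 585 at P2, which was 2.16-fold lower per total (interval 1.95 to 2.39). This sum includes the genes that passed the floor in 1 library only, more of them at P1, so the filter is part of the ratio and its interval does not cover that. P0 held 1102. Most single genes were thin, and only 18 had 20 or more reads in the pair of libraries. Of these 9 fell, 0 rose and 17 were below 0, and the interval of 11 lay wholly below 1.

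Gm23130, the deepest of those that fell, lies in Rps12 and measured 54.7 FPKM at P0, 77.8 at P1 and 22.9 at P2, from 104 and 38 reads (3.40-fold lower, interval 2.32 to 5.06). Gm24494, in Rabggtb, measured 33.0, 34.2 and 7.71 FPKM and was 4.43-fold lower (interval 2.41 to 8.68). Snora31, in Tpt1, went from 32 reads to 8, Snord49a from 25 to 7, and Gm27326, in Rpl23, from 18 to 3. At the other end Snord17 had 15 and 21 reads, a difference of 0.14. The 5 sequences below are those with the largest falls among short RNA genes with 20 or more reads, and show that both guide types were among them. They were read from GENCODE release M21 transcripts (GRCm38). Capitals mark TGATGA in the first 25 bases (box C) and CTGA in the last 20 (box D), or ACA in the last 8 where neither box was found. Of the 97 genes 27 held both boxes in these windows (27.8%), 28 only CTGA (28.9%), 1 only TGATGA and 34 the letters ACA alone (35.1%). Gm27326 lies at chr11:97780182-97780276 on the minus strand, Gm24494 at chr3:153911610-153911690 on the minus strand, Snora31 at chr14:75847905-75848034 on the plus strand, Snord49a at chr11:62603450-62603521 on the plus strand and Gm23130 at chr10:23786470-23786543 on the minus strand.
Gm27326: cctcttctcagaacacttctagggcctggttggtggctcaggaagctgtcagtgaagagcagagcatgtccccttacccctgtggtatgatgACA
Gm24494: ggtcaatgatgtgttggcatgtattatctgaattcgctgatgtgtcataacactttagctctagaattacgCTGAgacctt
Snora31: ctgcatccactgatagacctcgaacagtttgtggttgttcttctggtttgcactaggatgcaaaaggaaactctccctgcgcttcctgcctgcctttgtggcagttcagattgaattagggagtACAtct
Snord49a: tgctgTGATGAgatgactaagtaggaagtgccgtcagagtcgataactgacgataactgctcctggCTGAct
Gm23130: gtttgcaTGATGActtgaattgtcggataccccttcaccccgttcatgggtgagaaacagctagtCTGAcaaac

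The genes around the snoRNAs stayed within the threshold. Of the 97 snoRNA genes 84 lie inside another gene compared, 66 such genes in all, of which 0 rose and 0 fell, with a median of -0.05. For the 36 fallen snoRNA genes with a surrounding gene, the 29 genes around them differed by between -0.52 and 0.08. Rps12 stood at 2172 FPKM at P1 and 2036 at P2, and Tpt1 at 1671 and 1712. Genes for the proteins of snoRNA particles and the exosome were not called either: of 30 compared 0 passed and the median was 0.02.

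**Figure D3:**
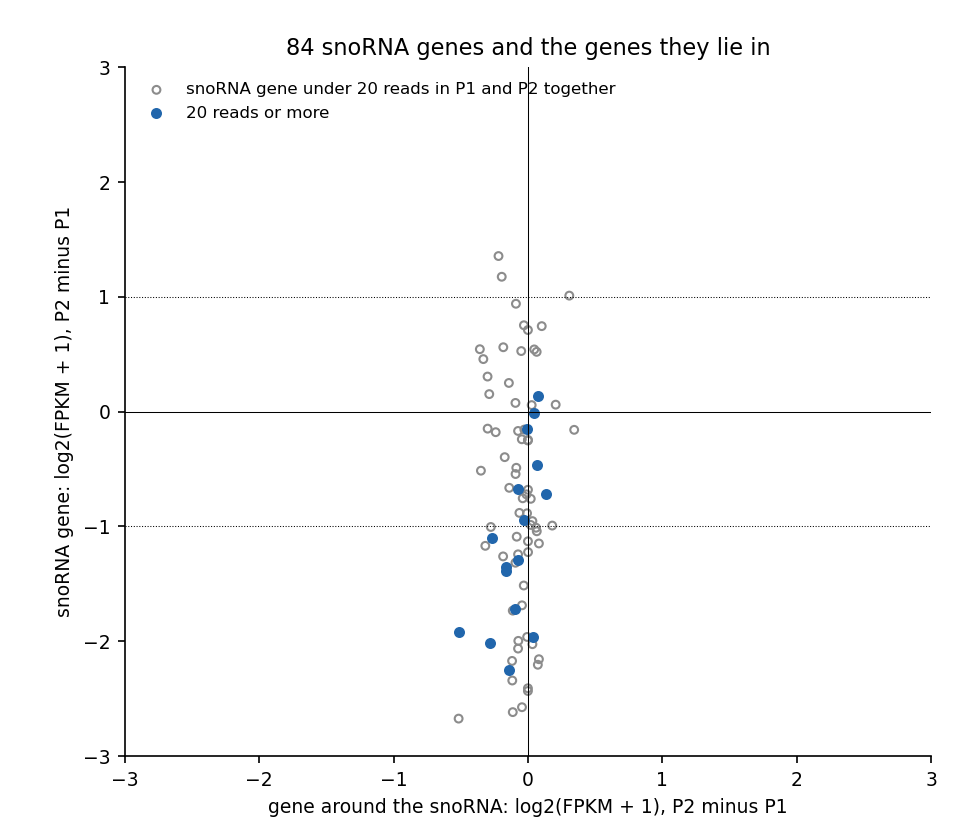
Difference of log2(FPKM + 1), P2 minus P1, for 84 snoRNA genes (vertical) and for the gene each lies in (horizontal), filled where the snoRNA gene had 20 or more reads in P1 and P2 together. The surrounding genes stay close to 0 while the snoRNA genes reach below -2, and all but 1 of the filled points are below 0.

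Other short RNA classes differed among themselves. The 1 mitochondrial tRNA gene compared, mt-Tp of 67 bases, had 348 reads at P1 and 248 at P2, a ratio per total of 0.574 (interval 0.486 to 0.678) that overlapped the interval of the snoRNA genes. MicroRNA genes had 357 reads at P1 and 488 at P2, a ratio per total of 1.10 (interval 0.959 to 1.27), with 11 rises and 18 falls among 58 and a median of -0.52. Small nuclear RNA genes had 133 and 158 reads (ratio 0.958), with 10 rises and 18 falls among 52 and a median of -0.40. Summed reads of these classes thus gave ratios near 1 while their medians, which rest on genes of a few reads, lay below 0. Of the microRNA genes 29 reached the floor of 1 FPKM only at P1 and 14 only at P2. Of the small nuclear RNA genes 26 and 15 did. The filter fixed the direction of all of these, so the counts of rises and falls and the medians largely follow from it. The summed reads include these genes too. Of 8 microRNA genes with 20 or more reads 1 rose and 0 fell, and the one that rose was Gm24270, from 5 reads to 22. Terc, the RNA component of telomerase, had 17 and 35 reads, and the interval of its ratio ran from 0.905 to 3.16. Short RNAs are captured poorly by libraries of fragmented RNA, and how fragments were selected by size is not stated in the labels. Among protein-coding genes, the 98 of up to 500 bases had a median of -0.04 against 0.02 over all genes. Within the ribosomal protein genes the 10 of up to 500 bases had a median of -0.21 and the 70 longer ones -0.07. Rps29 stood at 1332 and 901 FPKM and Rps28 at 1376 and 983. The part of transcript length or of RNA recovery in the snoRNA difference was not tested.

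**Figure D4:**
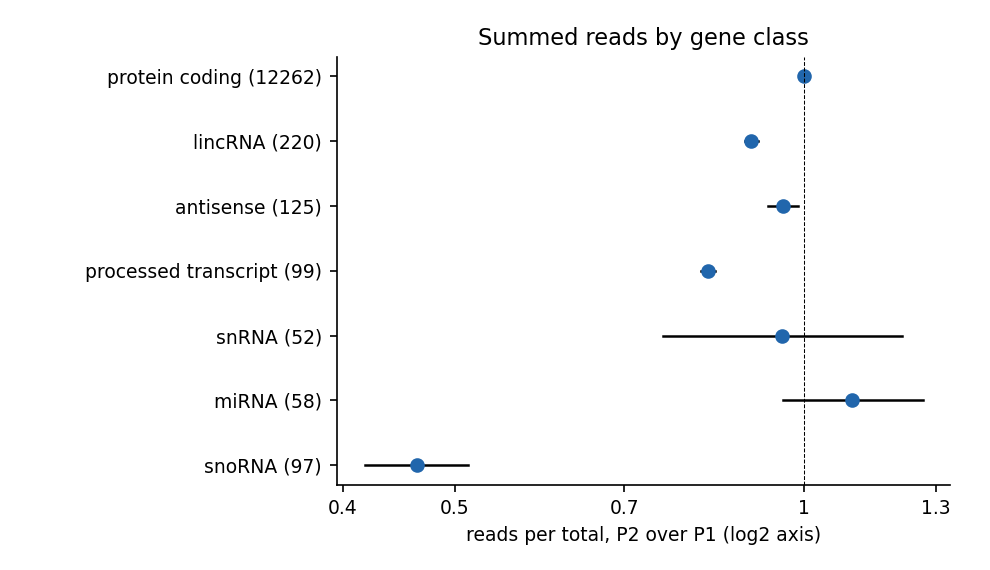
Reads per library total at P2 over P1 (log2 axis), summed over the genes compared in 7 annotated classes, with exact 95% counting intervals. snoRNA genes lie near 0.46, with an interval below those of the other 6 classes drawn, while the intervals of microRNA and snRNA genes span 1. The sums include genes that passed the floor of 1 FPKM in 1 library only. The single mitochondrial tRNA gene compared is not drawn.

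Trophoblast genes were higher at P2 as a group without any single call. Of 18 compared 16 were above 0, the median was 0.49, and the summed level was 214 FPKM at P1 and 258 at P2. The direction of 1 member was fixed by the filter, as it reached 1 FPKM only at P2. With no filter on low values the median was 0.44. Eomes, a T-box factor of trophoblast stem cells, stood at 4.13 and 8.06 FPKM, Tfap2c at 30.5 and 50.9, Gata3 at 1.33 and 2.54 and Cdx2 at 1.0 and 1.78. Tead4 was level, at 12.4 in both. Outside the list Gcm1, which directs syncytiotrophoblast formation, rose from 2.97 to 7.68 FPKM, with 0.542 at P0. Gcm1 was chosen after its values had been seen.

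Lists of the germ layers showed single calls at most. Of 8 mesoderm genes compared Msx2, a homeobox gene downstream of BMP, rose from 2.18 to 6.48 FPKM (ratio 2.98, interval 2.32 to 3.87), 0 fell and the median was 0.43. Of 15 endoderm genes 0 were called and the median was 0.23, or 0.22 with no filter on low values. The basement membrane collagen Col4a1 stood at 54.4 and 78.0 FPKM and Gata6 at 0.537 and 1.44. Gata6 was 1 of 2 endoderm members that reached 1 FPKM only at P2, which fixed their direction. Of 10 neuroectoderm genes 0 were called and the median was -0.10, with Sox11 at 4.33 and 2.37 FPKM and Nes, nestin, at 17.4 and 12.4.

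**Figure D5:**
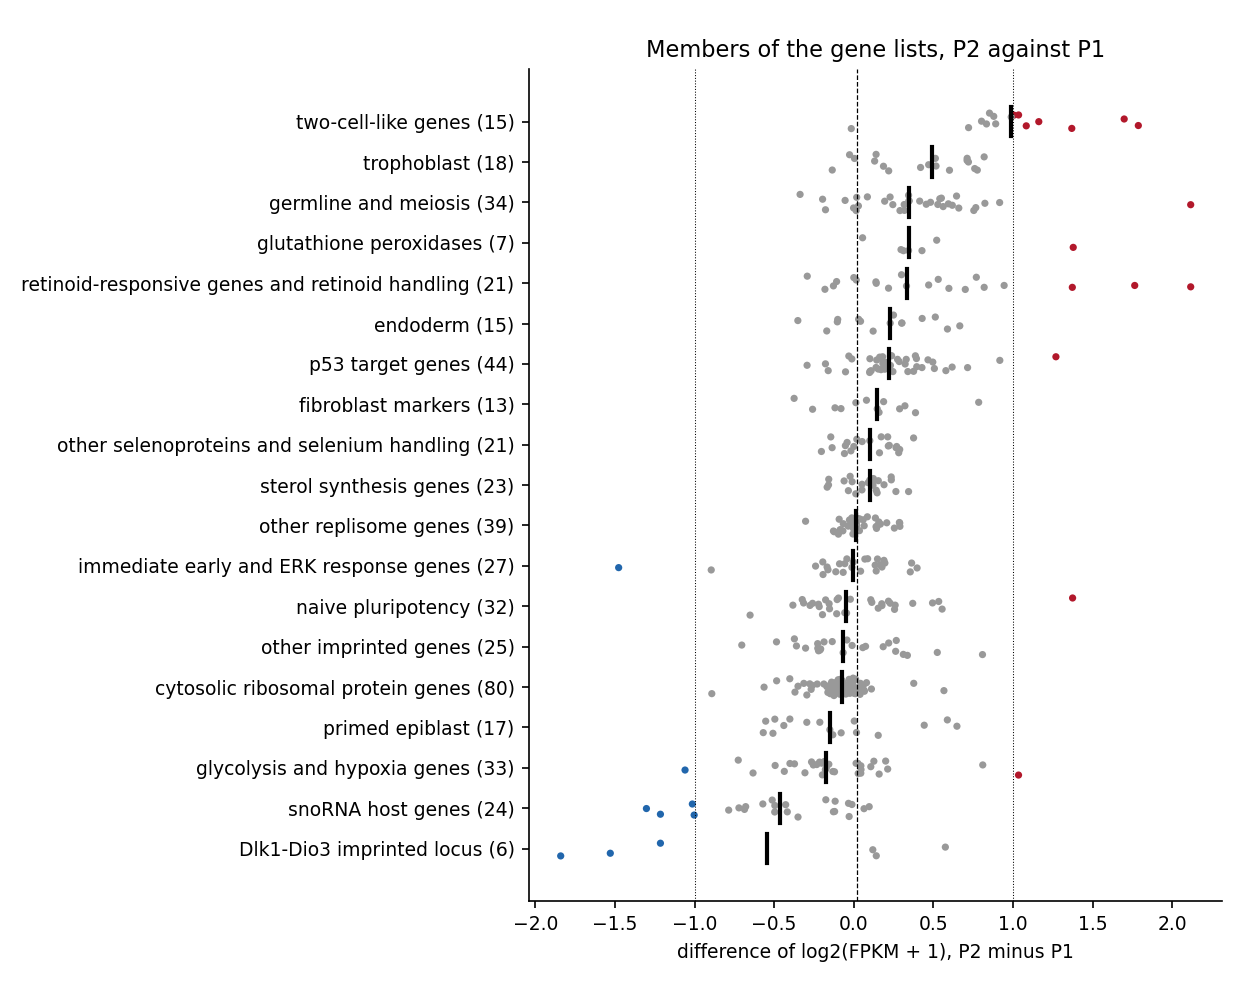
Difference of log2(FPKM + 1), P2 minus P1, for each compared member of 19 gene lists (number of members in brackets), with the list median as a black bar, the median of all genes as a dashed line and the threshold of 1 as dotted lines. Two-cell-like genes lie furthest to the right (median 0.99) and the Dlk1-Dio3 locus furthest to the left (median -0.55), while most lists centre near 0.

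Pluripotency genes were called once. Of 32 naive pluripotency genes 1 rose, 0 fell and the median was -0.05. The exception was Fbxo15, an F-box gene used as a reporter of the stem cell state, at 37.7, 30.7 and 81.3 FPKM in the order of passages (ratio of P2 to P1 2.64, interval 2.44 to 2.87). Nanog and Dppa2 were higher by 0.53 and 0.55, and Zfp57, which protects imprints, stood at 296 and 188 FPKM, a difference of -0.65. Of 17 primed epiblast genes 0 were called and the median was -0.15. Nodal was at 82.4 and 130 FPKM and the DNA methyltransferase Dnmt3b at 128 and 86.2. Esrrb, a naive state factor, stood at 127 and 118 FPKM.

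Most p53 targets were slightly higher at P2. Of 44 compared 38 were above 0 and the median was 0.22, yet 1 rose and 0 fell. Btg2, an antiproliferative gene, stood at 46.6 and 70.1 FPKM, Ddit4, an mTOR inhibitor, at 107 and 152, and Gadd45b at 9.40 and 16.1. Bax, a cell death effector, and Bbc3, which encodes PUMA, were level at 277 and 275 and at 113 and 110. Trp73 of the p53 family differed by 0.56 and Trp53 by 0.04.

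Replication genes were level at this step. Of 10 genes of polymerase delta, its clamp and the clamp loader 0 were called, with Pold1 at 137 and 141 FPKM, Pold2 at 202 and 210 and Pold4 at 4.02 and 3.63. Rfc4, a clamp loader subunit, had the largest difference, 0.34. Of 39 other replisome genes 0 were called, and the median was 0.02.

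Signalling genes showed isolated changes. Egr1, an immediate early zinc finger factor induced by ERK signalling, fell from 26.1 to 8.72 FPKM, with 29.3 at P0, and was 2.99-fold lower (interval 2.74 to 3.26). Of the other 26 immediate early and ERK response genes compared 0 were called, and the list's median was near 0. Etv1, an ETS factor, came nearest at 8.65 and 4.19 FPKM (difference -0.90), while Jun stood at 8.61 and 11.4. Dusp9, a phosphatase of ERK on the X chromosome, rose from 98.9 to 206 FPKM (ratio 2.08, interval 2.01 to 2.15), the only call among 20 dual-specificity phosphatase genes, a list added after values had been seen. Of 20 Wnt pathway genes Cdx1 rose and 0 fell. The feedback target Axin2 stood at 9.25 and 16.2 FPKM and the nuclear factor Lef1 at 5.76 and 3.16.

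Glycolysis and hypoxia genes leaned downward. Of 33 compared 1 rose, 1 fell and 20 were below 0, with a median of -0.17. The gluconeogenic enzyme gene Fbp1 rose from 12.2 to 26.0 FPKM, and its paralog Fbp2 stood at 12.8 and 23.2 (difference 0.81). Eno2, the neuronal enolase gene, fell from 4.11 to 1.45 FPKM. Pfkp, a phosphofructokinase, was at 43.7 and 26.0 FPKM, Hk2, hexokinase 2, at 48.4 and 34.1 and Pdk1, which restrains pyruvate entry to mitochondria, at 83.5 and 61.4. The transporters Slc2a1 and Slc2a3 differed by 0.20 and 0.16. Fbp1 and Fbp2 catalyse the step that opposes phosphofructokinase.

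The remaining named rises share no list. Guca1a, a calcium sensor of photoreceptor guanylate cyclase, measured 2.87, 3.37 and 12.8 FPKM (ratio of P2 to P1 3.79, interval 2.81 to 5.20). Calcoco2, an autophagy receptor for bacteria, measured 29.1, 48.0 and 124 FPKM and Tmem72, a membrane protein gene, 13.1, 13.2 and 35.5. Gm48271, a transcript of uncertain annotation, and Gm42808, a lincRNA gene, rose to 44.0 and 8.14 FPKM, the latter from 11 reads at P1. Slc30a2, a zinc transporter that loads vesicles, rose from 7.29 to 19.2 FPKM, the one call among 22 metallothionein and zinc transporter genes (a list also added after values had been seen).

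Further rises, named after their values had been seen, were in secreted factors and enzymes. Il34, a ligand of the macrophage growth factor receptor, rose from 3.82 to 10.9 FPKM, Sct, secretin, from 12.7 to 29.6, and Mmp9, a matrix metalloproteinase, from 9.36 to 22. Mfsd12, a lysosomal cysteine transporter, rose from 6.44 to 16.8 FPKM, Gpat3, of glycerolipid synthesis, from 3.28 to 8.30, and Dglucy, a D-glutamate cyclase, from 5.52 to 13.2. At P0 these 6 genes lay below their P1 level.

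Falls among protein-coding genes were fewer. They included single neuronal and endocrine genes and not these groups as a whole: the synaptic list had a median of -0.08, and secretin was among the rises. Syt5, a calcium sensor of secretory vesicles, measured 4.14, 9.16 and 2.74 FPKM and was 3.35-fold lower at P2 than at P1 (interval 2.43 to 4.68), the 1 call among 15 synaptic genes. Trh, the thyrotropin-releasing hormone gene, fell from 118 to 57.6 FPKM and Nefl, the light neurofilament gene, from 12.5 to 5.72, both named after their values had been seen. Aire, the regulator of self-antigen expression in the thymus, fell from 7.01 to 2.67 FPKM, Mxra8 from 7.19 to 2.58, Cnpy1 from 14.9 to 6.55 and Ano9, of the anoctamin membrane protein family, from 24.1 to 11.2. The remaining named falls were Gm15726 and 4930579G18Rik, which are antisense to other genes and uncertain without strand, and Gm49759, Gm38393 and 1810032O08Rik.

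Values near the threshold show how fine the line was. Those given are of genes with FPKM of at least 5 in either library or in both, outside short RNA genes and unnamed models. Just inside on the upper side was 1110002J07Rik at 1.0, Usp17le and Mlana both at 1.01, and just outside were Cenpm, a centromere gene, which lay under 1 before rounding, Irf5 at 0.98 and Arl4d at 0.98. On the lower side Snhg14, Nefl and Snhg17 lay inside at -1.0, -1.01 and -1.01, and Krtcap3, Firre and Gm10351 outside at -0.98, -0.96 and -0.95. Cenpm had 1214 and 3026 reads, so that its ratio of 2.01 (interval 1.88 to 2.15) was better measured than those of many genes called.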

How the data were processed

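RNA from KH2 mouse embryonic stem cells was sequenced in 1 library each at P0, P1 and P2. The authors deposited FPKM values. Per the submitters' processing notes, reads went through Bowtie2 2.0.6 and TopHat2 2.0.9 with build mm9. For the counter, the annotation and the strand: not given in the sources used here. Classes, chromosomes and surrounding genes came from GENCODE M21 by gene ID, and 49326 of 50043 IDs matched.

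Whole reads were recovered from the FPKM values of 26291 of 26291 IDs above 0 (relative tolerance 1e-09), giving library totals. At P1 and P2, 3 reads on a gene of 2 kb were worth 0.0831 and 0.0669 FPKM. Intervals are Clopper-Pearson on recovered reads. As reads carry no molecular identifiers, they cover counting error only.

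Members and 37 gene lists were chosen with earlier results of these data known, and 3 lists were added after seeing values. Named genes are the polymerase delta genes, Aqp3, Gpx4, Meg3, the 15 largest rises and 15 largest falls at FPKM of at least 5 outside short RNA genes and unnamed models, the 5 largest each way among short RNA genes with 20 or more reads, and up to 4 members per list. Other members illustrate their list and were chosen after seeing values. Some genes counted in the lists are not reported here by name. The steps were tested on simulated data. Alternatives were a pseudocount of 0.1, an FPKM floor of 5 or none, median-of-ratios, rescaling to 1000000, quantile normalization, a comparison restricted to genes that are neither short RNAs nor unnamed models, and thinning P2. Python 3.11.15 with numpy 2.4.6, pandas 2.3.3, scipy 1.17.1 and matplotlib 3.10.9 was used.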

Additional observations from a re-analysis of the deposited data

How the results depend on the processing

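All 47 named genes past the threshold kept their direction under each alternative run, and 45 stayed past it; Snhg17 and Snhg14 did not after thinning. The 106 rises and 120 falls became 370 and 265 with a pseudocount of 0.1, 41 and 43 at FPKM of at least 5, where fewer genes were compared, and 183 and 197 after rescaling to 1000000. With short RNA genes and unnamed models left out, there were 37 falls. Higher calls were 46.9% of all calls, 58.3% with a pseudocount of 0.1, and between 43.8 and 49.6% under the scalings, thinning and floors. The 41 snoRNA falls became 22 at FPKM of at least 5 and 9 among genes with 20 or more reads, a limit chosen after seeing the data. The two-cell-like median of 0.99 became 1.58 with a pseudocount of 0.1, 1.35 at FPKM of at least 5 and 0.79 without a filter. The Dlk1-Dio3 median of -0.55 became -1.53 at FPKM of at least 5 and -0.09 without a filter. It became 0.14 without members that other lists hold, an alternative also chosen after seeing the data, because Meg3, Rian and Mirg leave the list. Scalings moved the median of all genes by less than 0.1. No paired analysis was possible because each passage has 1 library.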

Other observations

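Ribosomal protein genes were slightly lower at P2 as a group, with 63 of 80 below 0, 0 called and a median of -0.07, which quantile normalization moved to -0.01. The list for the integrated stress response and unfolded proteins had 0 calls among 29 and a median of -0.10. Atf4, its central transcription factor gene, stood at 82.9 FPKM at P1 and 60.5 at P2, and Mthfd2 and Psat1, its targets in folate and serine metabolism, at 62.8 and 49.2 and at 267 and 213. Heat shock genes also had 0 calls among 17, with Cryab, a small heat shock protein gene, at 6.39 and 13.5 FPKM and Hspb1 at 510 and 688. Sterol synthesis genes had 0 calls among 23 and a median of 0.10.

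By chromosome the medians of the autosomes lay between -0.01 and 0.05. The 447 X-linked genes compared had a median of -0.07, with 5 rises and 4 falls, and the 15 mitochondrial genes -0.23 with 0 calls. Of the zinc-binding metallothioneins Mt1 stood at 308 and 372 FPKM and Mt3, the neural form, at 12.5 and 6.36. The zinc importer gene Slc39a4 stood at 26.2 and 43.9 FPKM, a difference of 0.72.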
